A study of Mus musculus with 4 samples.

Results

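Core promoter peaks of the transcription factor RREB1 are described here, meaning listed peaks of protein-coding genes that the authors' annotation placed at a promoter and that lay no more than 100 bp from the transcription start. There were 344 such peaks among the 1933 listed (17.8%, Wilson 95% interval 16.2 to 19.6%), and the selection used position alone, with no peak height or score. RREB1-3V5 binding was measured by chromatin immunoprecipitation and sequencing (ChIP-seq) in whole cerebella of mice 3 weeks old, with 2 ChIP libraries made with a V5 antibody, from a female and a male, and 2 Input libraries of sheared chromatin set aside before precipitation. All animals carried the transgene Tg(PCP2-Rreb1/3V5)20/J, in which the Pcp2 promoter drives the V7 transcript of Rreb1 with 3 V5 tags in Purkinje cells, so the tagged protein was made under a Purkinje cell promoter in tissue that also holds other cell types. The deposited table merges the peaks of both animals and gives 1 position per gene with no read count, score, width or animal. How deeply the libraries were sequenced and how far the 2 animals differed is thus not known, and intervals below cover counting error over peaks. The tissue could not be checked against marker expression with a list of positions.

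RREB1 is a zinc finger protein first known for binding Ras-responsive promoter elements. A core promoter is the stretch around the transcription start on which RNA polymerase II and the general transcription factors assemble. In mammals most housekeeping genes start within CpG islands, stretches rich in G, C and the CpG dinucleotide, where binding sites for SP and KLF factors (the GC box), NF-Y (the CCAAT box), ETS factors, NRF1, ZNF143 and YY1 are common. Promoters with a TATA box are fewer and often serve tissue-specific or inducible genes. NeuroD factors bind a form of the E-box and act at many neuronal enhancers.

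Sequences are printed 5′ to 3′ on the strand of the gene, with 30 bases on either side of the listed position, which is base 31 of each run. Capitals mark only matches to the motif for which a member was chosen, and matches to other motifs stay in lower case. The first set shows members in which the ETS site CCGGAAG, which reads CTTCCGG on the other strand, lay within 3 bp of the listed position, because this motif separated core promoter peaks most clearly from peaks farther upstream.
Zfp112, chr7:24112227-24112287 (mm10, plus strand): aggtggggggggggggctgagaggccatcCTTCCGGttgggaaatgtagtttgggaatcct
Psmd12, chr11:107479486-107479546 (mm10, plus strand): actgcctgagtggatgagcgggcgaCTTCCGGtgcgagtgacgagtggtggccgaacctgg
Uspl1, chr5:149184517-149184577 (mm10, plus strand): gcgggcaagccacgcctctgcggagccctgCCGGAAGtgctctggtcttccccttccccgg
Zfp112 encodes a zinc finger protein, Psmd12 a subunit of the regulatory particle of the proteasome and Uspl1 a protease of the SUMO pathway. The printed run ends 18 bp past the start of Psmd12 and 17 bp past that of Uspl1.

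The next set shows members with a CCAAT box, ATTGG on the other strand, or a GC box GGGCGG, which reads CCGCCC on the other strand, at the listed position, the 2 motifs held by the most members among those that were not an E-box of any kind.
Zbtb5, chr4:45012431-45012491 (mm10, minus strand): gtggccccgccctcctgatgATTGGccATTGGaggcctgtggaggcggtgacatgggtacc
Fgf12, chr16:28753299-28753359 (mm10, minus strand): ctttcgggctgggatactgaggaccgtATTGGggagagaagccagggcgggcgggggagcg
Bod1l, chr5:41844354-41844414 (mm10, minus strand): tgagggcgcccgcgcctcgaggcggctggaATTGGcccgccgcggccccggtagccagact
Scly, chr1:91298227-91298287 (mm10, plus strand): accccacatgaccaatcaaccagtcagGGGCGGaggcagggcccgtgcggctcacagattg
Avl9, chr6:56714788-56714848 (mm10, plus strand): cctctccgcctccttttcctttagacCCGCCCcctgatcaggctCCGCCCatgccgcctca
Erlin2, chr8:27023707-27023767 (mm10, plus strand): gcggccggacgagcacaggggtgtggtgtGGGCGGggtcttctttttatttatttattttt
Zbtb5 encodes a zinc finger repressor, Fgf12 an intracellular FGF homologous factor that binds sodium channels, Scly the selenocysteine lyase and Erlin2 a protein of the endoplasmic reticulum membrane. Zbtb5 held a pair of CCAAT boxes, both read as ATTGG on the strand of the gene, with the listed position in the downstream one, and Avl9 held a pair of GC boxes. Zbtb5, Fgf12 and Bod1l were chosen for the CCAAT box, and Scly, Avl9 and Erlin2 for the GC box.

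The remaining short set shows less frequent sites: the RFX site GTTGCCA, which reads TGGCAAC on the other strand, the NRF1 core GCGCATGC, which reads GCATGCGC there, the ZNF143 core ACTACAA, which reads TTGTAGT there, and the cAMP response element TGACGTCA, which is its own reverse complement.
Ccdc184, chr15:98167741-98167801 (mm10, plus strand): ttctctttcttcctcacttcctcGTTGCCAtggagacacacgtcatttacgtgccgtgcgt
Pick1, chr15:79229087-79229147 (mm10, plus strand): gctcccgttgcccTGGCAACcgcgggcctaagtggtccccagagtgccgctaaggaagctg
Gcfc2, chr6:81923597-81923657 (mm10, plus strand): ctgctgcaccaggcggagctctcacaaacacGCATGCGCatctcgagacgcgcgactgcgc
9530077C05Rik, chr9:22411395-22411455 (mm10, plus strand): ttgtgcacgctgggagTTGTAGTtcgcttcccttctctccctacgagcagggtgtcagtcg
Coa7, chr4:108328052-108328112 (mm10, plus strand): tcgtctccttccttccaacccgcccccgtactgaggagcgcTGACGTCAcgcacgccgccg
Pick1 encodes a PDZ protein that binds AMPA receptor subunits, and Coa7 a factor for assembly of cytochrome c oxidase.

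A NeuroD E-box, CATCTG or CAGATG, was infrequent at core promoters, as at all protein-coding starts. Members with a near match whose printed run lies mostly outside untranslated and noncoding exons were as follows.
Ints3, chr3:90433669-90433729 (mm10, minus strand): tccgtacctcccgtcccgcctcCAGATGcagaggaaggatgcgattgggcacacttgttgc
Ptcd2, chr13:99344677-99344737 (mm10, minus strand): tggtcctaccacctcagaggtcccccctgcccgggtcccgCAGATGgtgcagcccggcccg
Idh1, chr1:65186519-65186579 (mm10, minus strand): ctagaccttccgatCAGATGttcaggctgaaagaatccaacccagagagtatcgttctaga
Tdp2, chr13:24831551-24831611 (mm10, plus strand): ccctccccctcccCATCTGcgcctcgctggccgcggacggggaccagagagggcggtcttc
Ints3 encodes a subunit of the Integrator complex, which processes small nuclear RNAs, Ptcd2 a mitochondrial RNA-binding protein, Idh1 the cytosolic isocitrate dehydrogenase and Tdp2 a DNA repair phosphodiesterase.

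Core promoter positions lay mostly just before the start. Of the 344, 252 were upstream (73.3%, exact 95% interval 68.3 to 77.9%), 90 were downstream (26.2%, 21.6 to 31.2%) and 2 were at the start itself. The median was -37 bp, with quartiles at -68 and 3 bp, and the median absolute distance was 47 bp. The most filled 20 bp bin ran from -80 to -60 bp and held 62 peaks, against 33 in the bin from 0 to 20 bp, which includes the 2 at the start. Among the 180 members within 50 bp the upstream share was lower, 62.8% (55.3 to 69.9%). The distance of 339 members (98.6%) was identical when it was recomputed to the nearest RefSeq start of the same gene, and 17 members had more than 1 curated start within 100 bp.

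**Figure D1:**
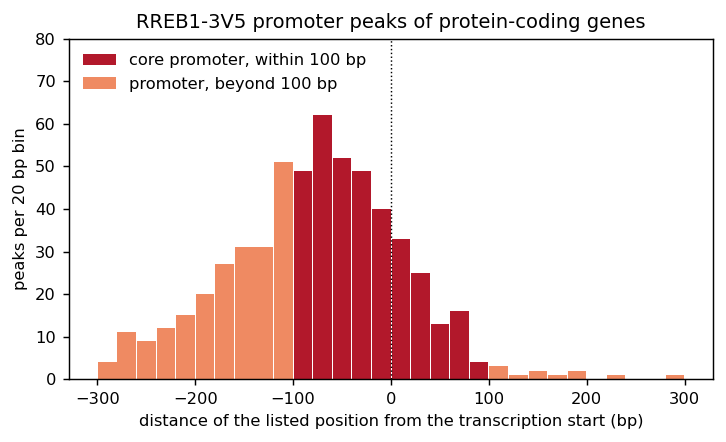
Distance of promoter peaks of protein-coding genes from the transcription start, in bins of 20 bp, with core promoter peaks in red and promoter peaks beyond 100 bp in orange (the bin from 100 bp also holds the single core peak at exactly 100 bp downstream). Counts are highest upstream of the start, with 62 peaks from -80 to -60 bp, and fall to 4 from 80 to 100 bp.

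The 6 members nearest to a start were Trmt13 and Hspa13 (0 bp), Rnf32 and Cfap99 (1 bp upstream), and Cdc123 and Cops2 (2 bp upstream). Trmt13 encodes a tRNA methyltransferase, Hspa13 a microsomal member of the heat shock protein 70 family, Cdc123 a factor needed for assembly of the translation initiation factor eIF2, and Cops2 a subunit of the COP9 signalosome, which removes NEDD8 from cullin ubiquitin ligases. At the upstream limit, Pigm and Zfc3h1 (100 bp) were just inside and Ccdc117 and Timm50 (101 bp) just outside. At the downstream limit, Cpt1c (96 bp) and Slc35f5 (100 bp) were inside and Taf7 (103 bp, annotated as 5′ untranslated region) and Cdca2 (104 bp) outside. The positions of Rnf112, Tbc1d19 and Gpatch3 were 2 bp wide and all others 1 bp.

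By RefSeq transcripts of any gene, 217 positions (63.1%) lay outside transcripts, 91 (26.5%) in a 5′ untranslated exon, 21 in an intron, 9 in a noncoding exon and 5 in a coding exon. The position of Lrrc14b, 84 bp upstream of its own start, fell in a 3′ untranslated exon.

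Relative to all 21000 protein-coding genes with a curated RefSeq transcript, 1.64% had a core promoter peak. By chromosome the share ran highest on chromosome 5, with 36 of 1195 genes (3.01%, exact 95% interval 2.12 to 4.15%), and lowest among the chromosomes with a member on X, with 3 of 902 (0.333%, 0.0686 to 0.969%). The X-linked members were Dlg3, Mid1ip1 and Pcyt1b. These shares are a description.

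Core promoter peaks were compared with the other listed peaks of protein-coding genes in 3 classes: 292 promoter peaks beyond 100 bp (called upstream promoter peaks here, although 13 of them lay downstream), 215 peaks in first introns and 398 intergenic peaks on assembled chromosomes. Shares of peaks were compared by two-sided Fisher's exact tests, an odds ratio above 1 meaning more frequent among core promoter peaks, with Benjamini-Hochberg adjusted p. Members were selected at starts, so tests against first intron and intergenic peaks compare promoter with other sequence. They cannot tell members from promoters in general, for which CpG and motif values over all protein-coding starts are given. Those windows were centred on the start, not on a listed position, and cover genes whether or not cerebellum expresses them.

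Most core promoter peaks sat in CpG-rich sequence. The GC content over 500 bp had a median of 60.7% in core promoter peaks, against 59.0% in upstream promoter peaks, 51.1% in first introns and 48.3% in intergenic peaks. The ratio of observed to expected CpG had medians of 0.763 in core promoter peaks, 0.753 in upstream promoter peaks, 0.215 in first introns and 0.184 in intergenic peaks. At the starts of all protein-coding genes the medians were 58.9% GC and a ratio of 0.649.

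**Figure D2:**
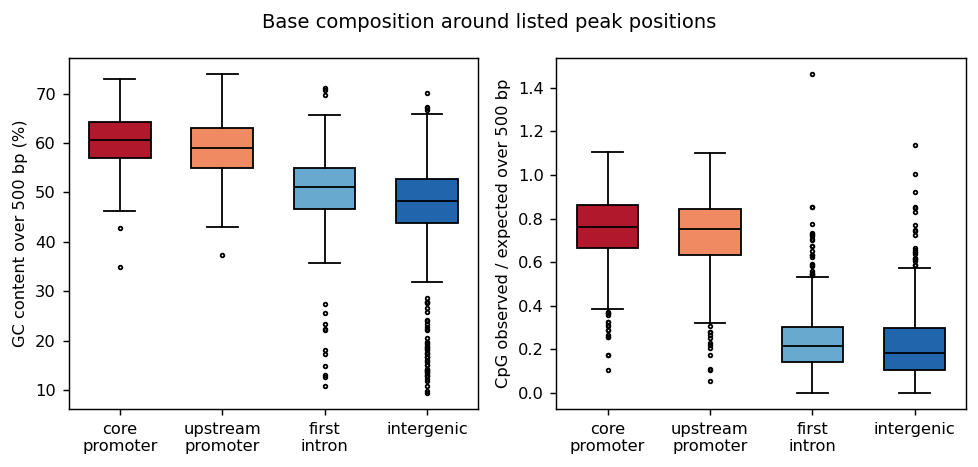
GC content (left, percent) and ratio of observed to expected CpG (right) over 500 bp around the listed positions of core promoter, upstream promoter, first intron and intergenic peaks. Lines are medians, boxes quartiles, whiskers reach 1.5 box lengths at most and points lie beyond them. Both promoter classes sit above the first intron and intergenic peaks in both measures, with median CpG ratios of 0.763 and 0.753 against 0.215 and 0.184.

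With limits of 55% GC and a CpG ratio of 0.65 over 500 bp, 241 core promoter peaks were CpG-rich (70.1%, Wilson 95% interval 65.0 to 74.7%), against 176 upstream promoter peaks (60.3%, 54.6 to 65.7%). The odds ratio was 1.54 (95% interval 1.11 to 2.14, Fisher's exact test, adjusted p = 0.0119). In first introns 9 peaks were CpG-rich (4.19%, odds ratio 50.7, 25.4 to 101.1, Fisher's exact test, adjusted p = 1.33e-60), and in intergenic sequence 6 were (1.51%, odds ratio 140.9, 62.8 to 316.3, Fisher's exact test, adjusted p = 3.62e-101). Of all protein-coding starts 46.5% were CpG-rich by the same limits. Neuronal members were among the 103 that were not. Scn2a, the gene of a voltage-gated sodium channel, had a GC content of 34.9% and a CpG ratio of 0.459. Stmn4, which encodes a neuronal stathmin that binds tubulin, had a CpG ratio of 0.371, and Gng3, the gene of a neuronal G protein subunit, had the lowest ratio of any member, 0.107. Map1a, which encodes a microtubule-associated protein of neurons, was CpG-rich with a ratio of 0.847.

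Some listed starts belonged to head to head gene pairs, in which another RefSeq gene started on the opposite strand within 1 kb. This held for 86 core promoter peaks (25%, 20.7 to 29.8%) and 47 upstream promoter peaks (16.1%, 12.3 to 20.7%), with an odds ratio of 1.73 (1.17 to 2.57, Fisher's exact test p = 0.00618). With protein-coding partners alone the odds ratio was 2.46. The share of such pairs over all protein-coding starts was not computed, so these shares cannot be set against promoters in general. Peaks were assigned to genes by proximity, so a position over 100 bp upstream of a gene with a close partner falls to the partner. The distance limit alone can thus take close pairs out of the upstream promoter class, and the comparison cannot tell this from a difference in binding. Of the 86 partners, 65 were protein-coding and 21 lncRNA genes. The median distance from the gene start to the partner start was 120.5 bp, and 51 positions lay between the starts of the pair. Close pairs included Cops2 with Galk2, the gene of a galactokinase (partner start 27 bp from the gene start), Ndufs1 with Eef1b2, a translation elongation factor gene (9 bp), and Chmp2b, an ESCRT component, with the lncRNA gene Gm36457 (46 bp). In 4 pairs both genes had a core promoter peak of their own: Wars and Wdr25, Erp44 and Invs, Rad9b and Vps29, and Fam216a and Gpn3. Their listed positions were 58, 50, 63 and 51 bp apart in that order, so the sequence windows of these pairs overlap and their motif counts are not independent.

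Motifs were searched on both strands within 100 bp of each listed position, as 20 short patterns, with p adjusted over the 60 comparisons with the 3 classes. Of these, 28 passed 0.05, but only 2 of them were against upstream promoter peaks: the ETS site and the CCAAT box. A window of 100 bp on either side held the start of the assigned gene in every core promoter peak and in no upstream promoter peak. Tests against upstream promoter peaks thus also compare distances from the start, which the selection used.

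The ETS site was the clearest mark of core promoter peaks. It was held by 86 of 344 (25%, 20.7 to 29.8%), against 30 of 292 upstream promoter peaks (10.3%, 7.29 to 14.3%), with an odds ratio of 2.88 (1.84 to 4.503, Fisher's exact test, adjusted p = 7.08e-06). The share was 2.79% in first introns (odds ratio 10.8, 4.76 to 24.4) and 1.01% in intergenic peaks (odds ratio 29.3, 11.2 to 76.7), and 10.3% at the starts of all protein-coding genes. Among CpG-rich windows alone, 31.5% of core promoter peaks held it, against 17.02% of all CpG-rich promoters. Matches had a median position of -8.5 bp from the start, and 23 members held it within 25 bp of the listed position. The median offset from the listed position was 47.5 bp. Density was 1.34 per kb within 25 bp and 0.0593 per kb beyond 500 bp, but 1.89 per kb from 80 to 100 bp. The ETS site was thus raised around the positions without gathering at them. With windows of 250 bp on either side, 29.9% of core promoter peaks and 22.6% of upstream promoter peaks held it. That difference no longer passed (odds ratio 1.46, Fisher's exact test, adjusted p = 0.0750). Members with an ETS site nearest to the position beside those printed were Cops2 (4 bp away), Tcea1, which encodes a transcription elongation factor, and Tnks, the gene of tankyrase (5 bp each).

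The GC box was the most common of the named sites, with 184 core promoter peaks (53.5%, 48.2 to 58.7%), against 146 upstream promoter peaks (50.0%, 44.3 to 55.7%). These did not differ beyond counting error (odds ratio 1.15, 0.842 to 1.57, Fisher's exact test, adjusted p = 0.471). It was far less frequent in first introns (7.91%, odds ratio 13.04, Fisher's exact test, adjusted p = 6.26e-30) and intergenic peaks (9.30%, odds ratio 11.1, adjusted p = 2.69e-39). In core promoter peaks its density was 5.29 matches per kb within 25 bp of the position and 0.578 per kb beyond 500 bp. All protein-coding starts held it in 44.2%. Among CpG-rich windows the order was the other way, 60.2% of core promoter peaks against 71.3% of all CpG-rich promoters. Scly and Abhd12, the gene of a lipid hydrolase, held a GC box 0.5 and 1.5 bp from the position.

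The CCAAT box was held by 123 core promoter peaks (35.8%, 30.9 to 41.0%), against 133 upstream promoter peaks (45.5%, 39.9 to 51.3%), with an odds ratio of 0.666 (0.485 to 0.916, Fisher's exact test, adjusted p = 0.0330). This call was lost in windows of 50 bp on either side (odds ratio 0.962, Fisher's exact test, adjusted p = 0.901), for members within 50 bp (0.780, adjusted p = 0.347), in windows of 55 to 65% GC (0.848, adjusted p = 0.717) and in windows without repeat bases (0.778, adjusted p = 0.436). Core promoter peaks held it more often than intergenic peaks did (22.9%, odds ratio 1.87, 1.36 to 2.58, Fisher's exact test, adjusted p = 0.000411), but not in windows of 250 bp on either side, where 53.2% of core promoter peaks and 50% of intergenic peaks held it (odds ratio 1.14, 0.852 to 1.52, Fisher's exact test, adjusted p = 0.557). First intron peaks were at 27.0%. All protein-coding starts were at 28.3%. In core promoter peaks 59 of the 123 had a match within 25 bp of the position, the median offset was 27 bp, and density was 3.61 per kb within 25 bp and 1.44 per kb beyond 500 bp. Kifbp, which encodes a protein that binds kinesin family members, held a CCAAT box 1 bp from its position, as did Zbtb5.

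The NeuroD E-box was less frequent in core promoter peaks than in peaks away from promoters, and near its share over all protein-coding starts. The paper had found a motif much like that of NEUROD1 de novo in its peaks from these data. Tests of this E-box are therefore not independent of the listed peaks, and only its split between the classes is described here. It was present in 26 core promoter peaks (7.56%, 5.21 to 10.8%), against 29 upstream promoter peaks (9.93%, 7.004 to 13.9%), an odds ratio of 0.743 whose interval, 0.429 to 1.29, includes 1 (Fisher's exact test, adjusted p = 0.436). In first introns 116 of 215 held it (53.95%, 47.3 to 60.5%, odds ratio 0.0711, 0.0441 to 0.115, Fisher's exact test, adjusted p = 3.45e-33). In intergenic peaks 186 of 398 did (46.7%, odds ratio 0.0948, 0.0609 to 0.148, Fisher's exact test, adjusted p = 1.99e-33). Within windows of 55 to 65% GC the shares were 6.52% in core promoter peaks, 62.0% in first introns and 43.2% in intergenic peaks. All protein-coding starts held it in 9.06%. Among CpG-rich windows 6.22% of core promoter peaks held it, against 4.30% of all CpG-rich promoters. Among windows that were not CpG-rich the shares were 10.7% and 13.2% in that order. Its density in core promoter peaks was 0.581 per kb within 25 bp of the position and 0.608 per kb beyond 500 bp, so matches were not gathered at the positions. In intergenic peaks the densities were 4.42 per kb within 25 bp and 0.836 per kb beyond 500 bp.

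The 6 members with the NeuroD E-box nearest to the position were Ints9 (2.5 bp), Invs and Lrrc14b (3.5 bp each), Ints3 (5.5 bp), Gng3 (7.5 bp) and Bicd1 (11.5 bp). Ints9 and Ints3 both encode Integrator subunits, Invs encodes inversin of the primary cilium and Bicd1 an adaptor for cytoplasmic dynein. Of the 26 members with this E-box 15 were CpG-rich (57.7%), against 226 of the 318 without it (71.1%). Only 6 of the 26 held none of the GC box, CCAAT box and ETS site.

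**Figure D3:**
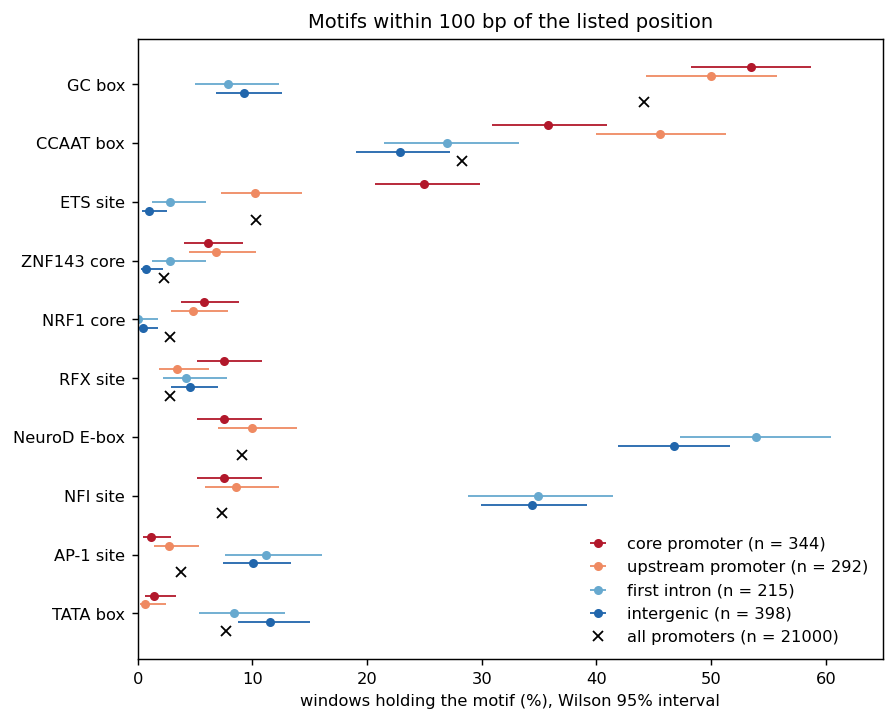
Share of windows that hold each of 10 motifs within 100 bp of the listed position (percent, Wilson 95% intervals) in core promoter, upstream promoter, first intron and intergenic peaks, with crosses for the starts of all protein-coding genes. The ETS site stands at 25% in core promoter peaks, against 10.3% in upstream promoter peaks, and the NeuroD E-box at 7.56% in core promoter peaks, against 53.95% in first introns.

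**Figure D4:**
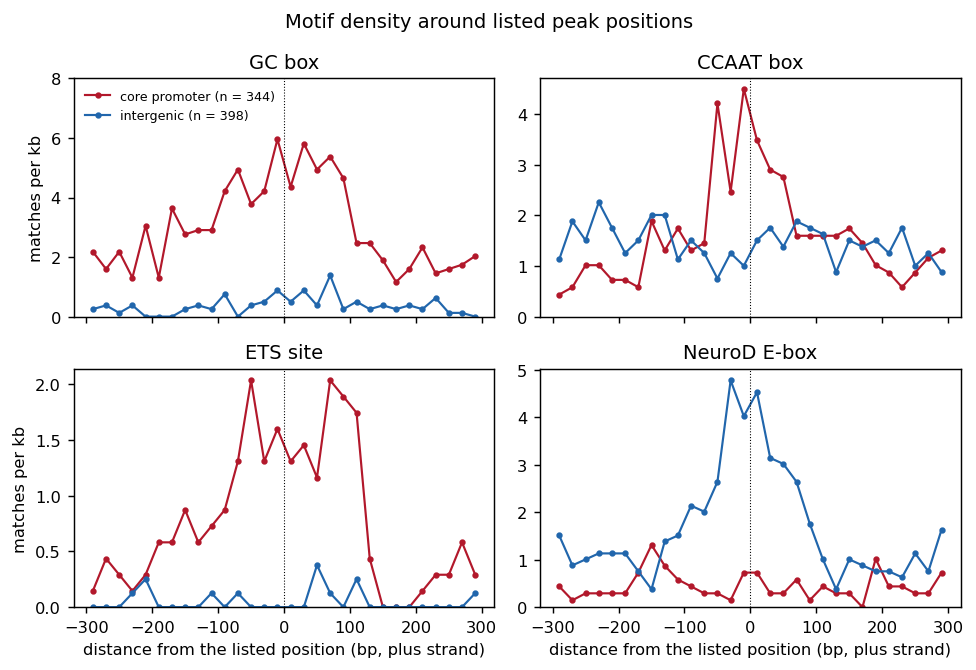
Matches per kb of 4 motifs in bins of 20 bp by distance from the listed position on the plus strand of the genome, for core promoter peaks (red) and intergenic peaks (blue). GC box and CCAAT box rise around core promoter positions, where the GC box reached 5.29 per kb within 25 bp. The ETS site is raised over a broader stretch with no peak at the position, with 1.34 per kb within 25 bp and 1.89 per kb from 80 to 100 bp. The NeuroD E-box rises around intergenic positions, where it reached 4.42 per kb within 25 bp.

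Less frequent promoter sites separated core promoter peaks from intergenic peaks but not from upstream promoter peaks. The NRF1 core was held by 5.81%, against 4.79% of upstream promoter peaks (odds ratio 1.21, 0.608 to 2.42) and 0.503% of intergenic peaks (odds ratio 10.0, Fisher's exact test, adjusted p = 5.04e-05). The ZNF143 core was held by 6.10%, against 6.85% of upstream promoter peaks and 0.754% of intergenic peaks (odds ratio 7.51, Fisher's exact test, adjusted p = 0.000119). For the cAMP response element the shares were 3.20% in core promoter peaks, 1.03% in upstream promoter peaks and 0.251% in intergenic peaks (odds ratio 9.14 against intergenic, Fisher's exact test, adjusted p = 0.00515). All protein-coding starts held the NRF1 core in 2.82%, the ZNF143 core in 2.32%, the cAMP response element in 2.16% and the YY1 core in 2.14%. The YY1 core AAGATGGCG, which reads CGCCATCTT on the other strand, had the same share and the same odds ratio against intergenic peaks, and its matches had a median position of 18 bp downstream of the start. The nearest match lay at a median of 63.5 bp from the position for the NRF1 core and 63 bp for the YY1 core. Within 25 bp of the position, 4 members held the NRF1 core and 0 the YY1 core. The nearest examples were Ddx41, an RNA helicase gene, and Rnf32, with the NRF1 core 2.5 and 4.5 bp from their positions. Ndufa9, the gene of a complex I subunit, and Fkbp3, the gene of a nuclear prolyl isomerase, held the YY1 core 43 and 29 bp away.

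The RFX site was held by 26 members (7.56%), against 10 upstream promoter peaks (3.42%), an odds ratio of 2.24 (1.08 to 4.66) that missed the threshold by Fisher's exact test (adjusted p = 0.0524). It passed on autosomes alone (odds ratio 2.46, Fisher's exact test, adjusted p = 0.0316) and in windows of 50 bp on either side (3.30, adjusted p = 0.0257). It did not pass for members within 50 bp (odds ratio 2.70, Fisher's exact test, adjusted p = 0.0558), in windows of 250 bp (1.55, adjusted p = 0.195), in windows of 55 to 65% GC (1.87, adjusted p = 0.401) or in windows without repeat bases (1.89, adjusted p = 0.321). In 14 of the 26 the match lay within 25 bp of the position. Density was 0.872 per kb within 25 bp and 0.0949 per kb beyond 500 bp. All protein-coding starts held it in 2.83%, and among starts that were not CpG-rich the shares were 13.6% of core promoter peaks (14 of 103) and 3.42% of all such promoters. Tspyl4 and Rbfox2, the gene of a neuronal splicing regulator, held an RFX site 2 bp from their positions. RFX factors are known as regulators of cilium genes. In a list of cilium genes 13 of 98 had a core promoter peak (13.3%), against 1.64% of all protein-coding genes, but the list was written after the members were seen, so that this share is in part set by the choice of genes and no test was run. They include Cep290, Tctn2, Tmem67 and Tmem237 of the ciliary transition zone, Ift22 and Ift74 of intraflagellar transport, Bbs7 of the BBSome and Dync2li1 of cytoplasmic dynein 2. Of the 13, 3 (Tmem237, Tctn2 and Dync2li1) held an RFX site.

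Sites known from enhancers and from regulated promoters were less frequent in core promoter peaks than in intergenic peaks. The NFI site TTGGCA, which reads TGCCAA on the other strand, was held by 7.56% of core promoter peaks, against 34.4% of intergenic peaks (odds ratio 0.158, Fisher's exact test, adjusted p = 4.89e-19), and by 7.37% of all starts. The AP-1 site, TGA and TCA with any base between them, was held by 1.16%, against 10.1% of intergenic peaks (odds ratio 0.117, Fisher's exact test, adjusted p = 3.33e-07), and by 3.82% of all starts. A TATA box TATAAA, which reads TTTATA on the other strand, was present in 5 core promoter peaks (1.45%), against 8.37% of first intron peaks (odds ratio 0.173, Fisher's exact test, adjusted p = 0.000326), 11.6% of intergenic peaks (odds ratio 0.123, adjusted p = 8.41e-08) and 7.74% of all protein-coding starts. On the sense strand at 40 to 20 bp before the start, the usual place of a TATA box, it was found in 2 members, Lrrc14b and Atp1b2, a sodium pump subunit gene of glia and neurons (0.581%), and in 2.88% of all protein-coding starts. In upstream promoter peaks the NFI site stood at 8.56%, the AP-1 site at 2.74% and the TATA box on either strand at 0.685%. Core promoter peaks did not differ from these shares past the threshold. The short element CCAAACC, which reads GGTTTGG on the other strand, from the known RREB1 motif was held by 12 members (3.49%), against 4.11% of upstream promoter peaks, 5.12% of first intron peaks and 2.01% of intergenic peaks, and by 2.64% of all starts. None of these 3 comparisons passed (adjusted p from 0.361 to 0.719). Limk2, the gene of a kinase that phosphorylates cofilin, held this element 4 bp from its position.

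The general E-box CANNTG, of which the NeuroD E-box is one form, was held by 45.9% of core promoter peaks, against 51.0% of upstream promoter peaks (odds ratio 0.816, 0.597 to 1.11, Fisher's exact test, adjusted p = 0.291), and by 51.9% of all protein-coding starts. It was less frequent in core promoter peaks than in first introns (85.1%, odds ratio 0.1505, Fisher's exact test, adjusted p = 1.47e-20) and in intergenic peaks (79.15%, odds ratio 0.225, adjusted p = 5.00e-20). Its form CACGTG, bound by MYC and USF factors, was held by 7.85%, against 2.26% of intergenic peaks (odds ratio 3.55, 1.67 to 7.54, Fisher's exact test, adjusted p = 0.00143), and by 5.77% of all starts. Its form CAGCTG was held by 9.30%, against 16.3% of first intron peaks (odds ratio 0.529, Fisher's exact test, adjusted p = 0.0341), and by 12.6% of all starts. The CACC box CCACCCC, which reads GGGGTGG on the other strand, was held by 11.9%, against 5.12% of first intron peaks (odds ratio 2.43, Fisher's exact test, adjusted p = 0.0165) and 6.03% of intergenic peaks (odds ratio 2.09, adjusted p = 0.0149), and by 10.9% of all starts. The element CTCGCGAG was held by 8 members (2.33%) and 0.976% of all starts, against 0.342% of upstream promoter peaks and 0 of 398 intergenic peaks (Fisher's exact test, adjusted p = 0.00533). At a limit of 3 counts, a count of 0 in 398 allows a share of up to 0.754%. The CTCF core AGGGGGCGC, which reads GCGCCCCCT on the other strand, and the MEF2 site CTAAAAATA, which reads TATTTTTAG there, were held by 3 members each (0.872%), and by 1.27% and 0.181% of all starts in that order, with no comparison past the threshold. Mlh3, a DNA mismatch repair gene, held CACGTG 3.5 bp from its position, Slc25a32, the gene of a mitochondrial folate carrier, held CAGCTG 1.5 bp away and G2e3, an E3 ubiquitin ligase gene, a CACC box 1 bp away.

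At least 1 of the GC box, CCAAT box and ETS site was found in 278 core promoter peaks (80.8%), against 222 upstream promoter peaks (76.0%), 75 first intron peaks (34.9%) and 121 intergenic peaks (30.4%). All 3 were found in 14 core promoter peaks (4.07%). Of the 19 patterns other than the general E-box, 18 members (5.23%) held none, among them Irs1, which encodes an insulin receptor substrate, Map9 and Cldnd1. The motif content did not depend detectably on the side of the start. In a comparison chosen after the data were seen, none of 20 motifs or the CpG-rich share differed between the 252 upstream and the 90 downstream members (Fisher's exact test, every adjusted p = 1, smallest unadjusted p = 0.0885 for CCAAACC). The ETS site, for example, was held by 25% of upstream and 25.6% of downstream members.

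Whole stretches from 120 bp upstream to the start show how these sites were arranged. Tnks held all 3 sites, which are in capitals, and its listed position is base 84 of the run, beside the ETS site.
Tnks, chr8:34965690-34965810 (mm10, minus strand): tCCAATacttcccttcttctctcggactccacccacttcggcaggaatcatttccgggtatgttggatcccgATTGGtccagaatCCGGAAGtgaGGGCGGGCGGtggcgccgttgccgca
For Neurod2, the gene of a transcription factor of granule neurons, and Scn2a, both known from earlier results of these data, matches to any of the 19 patterns are in capitals. The listed position is base 119 for Neurod2 and base 87 for Scn2a.
Neurod2, chr11:98329645-98329765 (mm10, minus strand): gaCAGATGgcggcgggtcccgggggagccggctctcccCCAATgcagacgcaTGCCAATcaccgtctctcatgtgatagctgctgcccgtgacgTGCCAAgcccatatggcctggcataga
Scn2a, chr2:65620649-65620769 (mm10, plus strand): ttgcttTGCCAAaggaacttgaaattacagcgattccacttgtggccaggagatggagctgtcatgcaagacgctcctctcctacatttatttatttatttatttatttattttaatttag
The Neurod2 stretch holds a CCAAT box, another that overlaps an NFI site, a further NFI site and, beyond 100 bp from the listed position, a NeuroD E-box. The Scn2a stretch holds an NFI site and neither a GC box nor an ETS site.

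The genes with a core promoter peak covered many basic functions of the cell. Counts in 25 gene lists are given beside the 1.64% of all protein-coding genes, as a description without a set test. That share covers genes whether or not cerebellum expresses them, and 15 of the 25 lists lay above it. The intervals were not adjusted for the number of lists. Proteasome genes had 4 of 49 (8.16%, exact 95% interval 2.27 to 19.6%): Psmd12 (12 bp), Psmc4 (55 bp), Psma6 (76 bp) and Psmd8 (84 bp), all upstream of the start. Cytosolic ribosomal proteins had 5 of 87 (5.75%, 1.89 to 12.9%), among them Rps24 (11 bp downstream) and Rpl37 (31 bp upstream). Mitochondrial ribosomal proteins had 3 of 78 (Mrpl39, Mrps30 and Mrps33), and the respiratory chain list had 5 of 107 (4.67%, 1.53 to 10.6%), with Ndufa9, the assembly factors Cox14 and Ndufaf7, Sdhb and Ndufs1.

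Among the transport lists, the interval lay above the share over all genes for kinesins, dyneins and adaptors and for trafficking, and included it for tubulins and for autophagy and lysosome genes. Kinesins, dyneins and adaptors had 5 of 82 (6.10%, 2.01 to 13.7%): Bicd1 (26 bp downstream), and Dync2li1 (36 bp), Kif6 (64 bp), Kifbp (71 bp) and Dync1i2 (79 bp) upstream. Tubulins and microtubule-associated proteins had 3 of 72 (4.17%, 0.868 to 11.7%), namely Map9 (19 bp upstream), Map1a (31 bp downstream) and Stmn4 (68 bp downstream). The list of ER, Golgi and endosome trafficking had 13 of 292 (4.45%, 2.39 to 7.49%). Of these Cops2 and Cops4 belong to the COP9 signalosome and not to trafficking, which leaves 11. The others include Copg1 of the COPI coat, Sar1a, the GTPase of the COPII coat, Vps29 of retromer, Cog8 of the Golgi tethering complex, Chmp2b of ESCRT-III, and Ap1s1 and Ap1g1 of the clathrin adaptor AP-1. Autophagy and lysosome genes had 4 of 93 (4.30%, 1.18 to 10.7%): Npc2, a lysosomal cholesterol carrier (16 bp upstream), Lipa, the lysosomal acid lipase (20 bp downstream), Tecpr2 and Atg14.

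Among lists of gene expression, RNA polymerases, Mediator and general transcription factors had 4 of 118 (3.39%), with Polr3k (37 bp), Tbp, the TATA-binding protein gene (39 bp), Med23 (57 bp) and Polr1b (65 bp), all upstream. Translation factors and tRNA synthetases had 3 of 111 (Wars, Lars2 and Eif1ad), splicing factors and RNA helicases 4 of 174 (Ddx41, Rbm34, Dhx8 and Ddx47), and zinc finger proteins named Zfp 8 of 392 (2.04%), the nearest being Zfp748, Zfp65 and Zfp160. Ubiquitin enzymes had 5 of 273 (1.83%), near the share over all genes, with Rnf32, Usp8 and Usp38 nearest. Chromatin regulators had 0 of 126 (exact 95% interval up to 2.88%), DNA repair, replication and cell cycle genes 1 of 118 (Mad2l1) and the Ras and MAP kinase pathway 1 of 78 (Rasa1, the gene of a RasGAP).

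In the neuronal and cell type lists the exact intervals all included the 1.64% over all genes. Synaptic vesicle and release genes had 2 of 76 (2.63%, 0.320 to 9.19%), Bin1 and Ppfia2, and voltage-gated ion channels 2 of 136 (1.47%), which were Scn2a and Kcnj9. Kcnj9 encodes an inwardly rectifying channel without a voltage sensor. Granule cell markers had 1 of 22 (4.55%, 0.115 to 22.8%), Neurod2 (2 bp upstream). Markers of Purkinje cells, the cells in which the Pcp2 promoter drives the transgene, had 0 of 20 (exact 95% interval up to 16.8%). The count was also 0 for markers of molecular layer interneurons, Bergmann glia and astrocytes, oligodendrocytes, microglia and vessels, lists of 6 to 10 genes. Dlg3, which encodes a synaptic scaffold protein, was a member with its position 78 bp upstream.

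**Figure D5:**
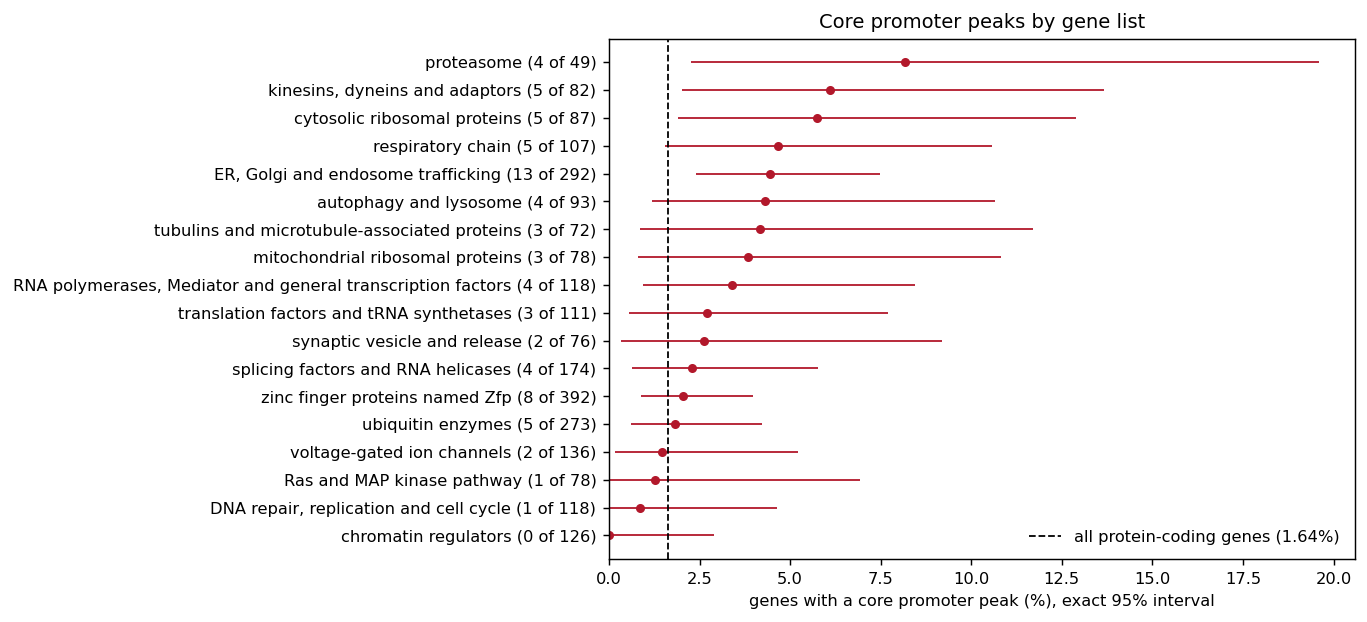
Percent of genes in each list of 40 or more genes with a core promoter peak (points, with exact 95% intervals), and the percent over all protein-coding genes (dashed line, 1.64%). The proteasome list is highest at 8.16%, and the intervals of most lists include the dashed line.

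The number that each listed peak carries in the merged peak list shows whether its neighbours in genome order are listed too, since the table keeps 1 row per gene and its numbers run to 3043. A missing number directly before or after was found beside 180 core promoter peaks (52.3%, 47.1 to 57.6%) and 148 upstream promoter peaks (50.7%), an odds ratio of 1.07 (0.782 to 1.46, Fisher's exact test, adjusted p = 0.691). First intron peaks had one more often (66.98%, odds ratio 0.543, 0.381 to 0.773, Fisher's exact test, adjusted p = 0.00120), as did intergenic peaks (72.4%, odds ratio 0.420, 0.310 to 0.570, adjusted p = 6.73e-08).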

How the data were processed

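RREB1-3V5 ChIP-seq was performed on cerebella of transgenic mice, with 2 ChIP and 2 Input libraries, grouped by the sample labels. By the study's methods, the authors ran fastp, Bowtie2 on mm10, Sambamba to drop duplicates and multimappers, and MACS3 (q-value below 0.05), then joined overlapping peaks through bedtools. Per the file header, HOMER annotated the deposited table. No versions of these tools were found in those sources. Positions are 1-based, and sequence and transcripts were taken from RefSeq for GRCm38.p6, whose chromosomes share mm10 coordinates. Promoter peaks were those that the annotation's own class names as such. A single peak off the assembled chromosomes entered no comparison. Motif matches had to lie wholly within 100 bp of the listed position. Classes were compared by two-sided Fisher's exact tests (Python 3.11.15, scipy 1.17.1), adjusted within each family, and odds ratios and their intervals had 0.5 added to each count. The tests were tested on simulated sequences. The members, motifs and gene lists were chosen with earlier results of these data known. Named genes were the 6 members nearest to a start, up to 3 per gene list, the 6 with the nearest NeuroD E-box, examples of the other motifs, the members at the limits, those 2 bp wide, and Map1a, Stmn4, Neurod2, Scn2a and Dlg3, beside others chosen after their values were seen. Some of the named members are not reported here.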

Additional observations from a re-analysis of the deposited data

How the results depend on the processing

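Alternatives covered the distance limit, RefSeq distances, autosomes, the window, GC content, repeats, the stricter E-box CCATCTG, the CpG limits, the partner rules and the comparison class. The CpG-rich, divergent start and missing number comparisons kept their direction and their side of the threshold in every alternative run. For divergent starts every alternative kept the split by distance from the start. It therefore cannot tell a difference in binding from the assignment of peaks to genes by proximity. Without windows that hold repeat bases, 18 of the 60 motif comparisons passed, against 28, with 211 of 344 core promoter windows left. For members within 50 bp, 62.8% lay upstream of the start, against 73.3%. The NeuroD E-box against upstream promoter peaks, which did not pass, changed direction for members within 50 bp (odds ratio 1.08), in windows of 250 bp on either side (1.03) and without repeat bases (1.06), and did not pass there either. The GC box against upstream promoter peaks did the same in windows of 250 bp (0.835). Against all other listed peaks of protein-coding genes, the CCAAT box was more frequent in core promoter peaks (odds ratio 1.33, Fisher's exact test, adjusted p = 0.0403). The causes were not tested. A stricter q-value and leaving out an animal were not run, because the table gives neither score nor animal. No paired analysis was possible because the table gives no value by library.

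Motif windows of neighbouring members overlap, peak height and width are unknown, and 1 position per gene is listed. Differences between the classes therefore concern listed positions and not strength of binding.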
